A study of Mus musculus with 4 samples.

Results

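The transcript described here is Tbk1 (ENSMUSG00000020115), which encodes TANK-binding kinase 1. It was chosen for the height of its strongest peak and taken as every row of the peak list with that gene symbol, which gave 9 of 4172 distinct peaks and 1 of 1626 gene symbols. The data come from eCLIP of NAT10 in the mouse line 32D, which grows on interleukin-3 and which the labels trace to bone marrow. All 4 libraries, 2 NAT10 immunoprecipitates and 2 inputs made without antibody, came from wild-type cells kept in 10% serum with 10 ng/mL interleukin-3 and crosslinked with UV light of 254 nm (150 mJ). No other genotype or treatment was used, the line is a cell model of haematopoietic stem cells and not those cells themselves, and the labels leave unsaid whether the replicate libraries are separate cultures. The question behind the series was which mRNAs NAT10 touches directly.

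TBK1 is a serine/threonine kinase of the IKK family. In innate immunity it is switched on when cytosolic DNA, viral RNA or bacterial products engage their sensors and the adaptors STING, MAVS or TRIF, and it then phosphorylates the transcription factor IRF3, which turns on type I interferon genes. It also phosphorylates selective autophagy receptors such as optineurin. NAT10 writes N4-acetylcytidine (ac4C) on RNA. eCLIP reads out where the protein was crosslinked and carries no measurement of acetylation, RNA level or stability.

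Because Tbk1 was selected on these values, the peaks are described without a test. Fold and p per peak are the authors' own values. Folds in the deposited list were taken as log2 of immunoprecipitate over input, and its p values as -log10 p. No listed peak has a log2 fold under 3.00 or a -log10 p under 3.07, so the list is blind to weaker binding, and its median log2 fold is 4.60. A peak list shows no expression. Of 6 markers of an immature myeloid line, Ptprc and Csf2rb had a peak, and Spi1, Kit, Mpo and Il3ra had none. Of 6 markers of other cells none had one. With a peak on 7.33% of all protein-coding genes, lists of 6 are too short to tell cell types apart. Coordinates are in GRCm39, per the submitters' processing notes, and are counted from 1.

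All 9 Tbk1 peaks lay on the minus strand of chromosome 10, between 121404073 and 121414632. This stretch of 10560 nt compares with a RefSeq gene length of 40340 nt (GRCm38.p6, used for the length alone). The peaks were 13 to 104 nt wide, summed to 545 nt, and formed 7 separate regions once touching peaks were joined. Every one of the 9 exceeded the list median, with log2 folds of 5.85 to 9.04 and a median of 6.61. The weakest Tbk1 peak was stronger than 84.6% of all listed peaks. By class, the authors placed 4 peaks in exons, 3 in the 3' UTR and 2 in the 5' UTR.

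The highest signal was a block of 3 touching exon peaks covering 222 nt, from 121412101 to 121412322. In the direction of transcription the first piece (121412279 to 121412322, 44 nt) had a log2 fold of 9.04, which is 527-fold. The next piece (121412180 to 121412278, 99 nt) had 8.73, and the last (121412101 to 121412179, 79 nt) had 8.16. Signal was thus highest at the upstream edge of the block and stepped down along the transcript. These pieces ranked 29, 40 and 73 among all 4172 peaks by fold, and 74, 102 and 148 by the p column.

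The other 6 peaks were lower and close to one another, with log2 folds of 5.85 to 6.81. The 5' UTR pair lay 2279 bases upstream of the block and consisted of very short pieces 4 bases apart. The piece at 121414620 to 121414632 (13 nt) had a log2 fold of 6.61 and that at 121414602 to 121414615 (14 nt) had 6.50. Such short neighbours can hold the same reads, so they are not separate evidence of binding. Downstream of the block, after a gap of 4163 bases, came the 3' UTR class. Its peaks were at 121407868 to 121407937 (6.39), at 121407709 to 121407812 (6.81) and at 121406574 to 121406621 (6.02). The last peak along the strand, at 121404073 to 121404146, was again in the exon class and was the weakest, at 5.85.

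**Figure D1:**
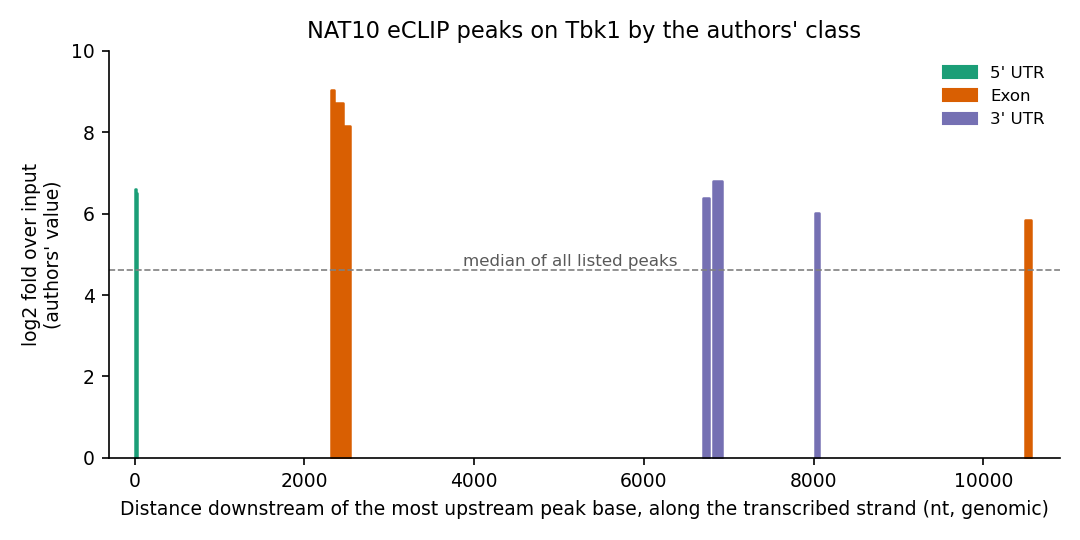
Log2 fold over input (authors' value, vertical axis from 0) of each Tbk1 peak against its genomic distance in nt from the most upstream peak base, in the direction of transcription; bars have the width of the peak and the colour of its class, and the dashed line is the list median of 4.60. The block of 3 exon peaks reaches 9.04, and an exon peak of 5.85 lies beyond the 3' UTR peaks.

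The classes did not follow the usual order of an mRNA. Along the strand they ran 5' UTR, exon, 3' UTR and exon again, so 1 exon peak lay beyond peaks classed as 3' UTR. Of the 32 genes with peaks in all 3 classes, 23 had them in the order 5' UTR, exon, 3' UTR, and 9, Tbk1 among them, did not. An exon peak beyond a 3' UTR peak occurred in 4 of the 32 genes, which were Tbk1, Mecom, Nap1l1 and Atxn7l1. The sources used here do not name the transcript models behind the classes, and no annotation of GRCm39 was used, so the classes are given as the authors' and the Tbk1 isoform behind each peak was not analysed here.

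The next protein-coding gene upstream in the RefSeq table is Xpot, which encodes the tRNA export receptor exportin-T and has its peaks on the same strand. Xpot had 3 peaks, all classed as 3' UTR, with log2 folds of 4.44, 4.05 and 4.96. The nearest of them began 8748 nt upstream of the first Tbk1 peak. All 3 were weaker than every Tbk1 peak. If the genes do not overlap, a Tbk1 gene of 40340 nt runs well beyond its last peak. Tbk1 peaks classed as 3' UTR thus need not lie near the end of the gene, and values and ranks given for that class rest on the authors' label alone.

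Although the list holds no value per library, its fold and p columns allowed read counts to be recovered for both pairs of immunoprecipitate and input. The p column fitted the lower of the pairs' -log10 p-values from a one-sided Fisher's exact test, which is that of the weaker pair. With the library totals fitted from that column alone, the fold column then gave whole read counts in the other pair for 3962 of 4172 peaks (94.97%). For the Tbk1 peaks these counts lay at most 2.03e-06 from whole numbers, and each peak had 1 solution when only the smallest fitting counts were kept. The fitted totals were about 2210000 immunoprecipitate and 4100000 input reads in the pair called A here, and 2560000 and 4180000 in pair B. Which pair is labelled replicate 1 could not be told, and for the pair with the larger -log10 p the counts are the smallest that fit. Multiples of them would give the same fold, so read counts, CPM and counting intervals of that pair rest on this rule.

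All 9 Tbk1 peaks had a recovered input count of 1 in each pair, as did 70.1% of all listed peaks. In the pair with the larger -log10 p it is the smallest count that fits. Whether the 1 is a read or a value set in place of 0 is not known. The fold of each Tbk1 peak therefore follows its immunoprecipitate count. At the strongest peak pair A held 283 immunoprecipitate reads and pair B held 324. The middle piece of the block held 224 and 264 reads, and the downstream piece 165 and 163. All 3 pieces thus held 163 or more reads in both pairs.

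The remaining peaks held 29 to 65 reads per pair. In the 5' UTR the upstream piece had 52 reads in pair A and 61 in pair B, and the downstream piece 46 and 59. The 3' UTR peaks, taken along the strand, had 44 and 53, then 64 and 65, then 34 and 41. The last exon peak had 29 and 38. Counts outside the block did not overlap those inside it in either pair. The block was named as the highest signal by fold, and the fold of each Tbk1 peak follows these counts. The gap in counts is therefore largely set by that choice and is not a separate finding. Reads can span touching peaks, so counts were not summed over the block.

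Scaled by library totals, both pairs gave nearly the same folds. The strongest peak had a log2 fold of 9.04 in pair A and 9.05 in pair B (mean 9.04 ± 0.0056, SD, n = 2 pairs). The middle piece had 8.70 and 8.75 (8.73 ± 0.035, SD, n = 2 pairs) and the downstream piece 8.26 and 8.05 (8.16 ± 0.14, SD, n = 2 pairs). The steps along the block therefore had the same direction in both pairs. At the weakest peak the pairs gave 5.75 and 5.95 (5.85 ± 0.14, SD, n = 2 pairs). Over the 9 peaks the pairs differed by 0.0080 to 0.20 on the log2 scale, with a median of 0.083. Over all peaks with recovered reads the median difference was 0.19 (interquartile range 0.080 to 0.35). The 2 sets are not alike in their input counts. All 9 Tbk1 peaks had an input count of 1 in each pair, so their differences and SDs hold no variation of the input. Of the 3962 peaks with recovered reads, 2925 had such counts, and in the others the input can add to the difference. Pair B was higher at 7 of the 9 Tbk1 peaks, against 53.7% of all peaks with recovered reads. Peaks with more reads also vary less, and a list that asks for signal in both pairs leaves out the most discordant peaks, so these small differences are a description of listed peaks.

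The spread between pairs was much smaller than the counting error, because the input count is so low. For the strongest peak the exact 95% binomial (Clopper-Pearson) interval of the fold ran from 93.6 to 20828 in pair A, around 525, and from 94.2 to 20934 in pair B, around 528. For the weakest peak it ran from 8.93 to 2199 in pair A and from 10.5 to 2511 in pair B. These wide intervals bear on the size of each fold over input, and whether the folds of these peaks differ was not tested. The intervals cover counting error only, since PCR copies are not independent molecules. They also take the input count of 1 as an observed read, and where no input read was seen they do not hold.

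**Figure D2:**
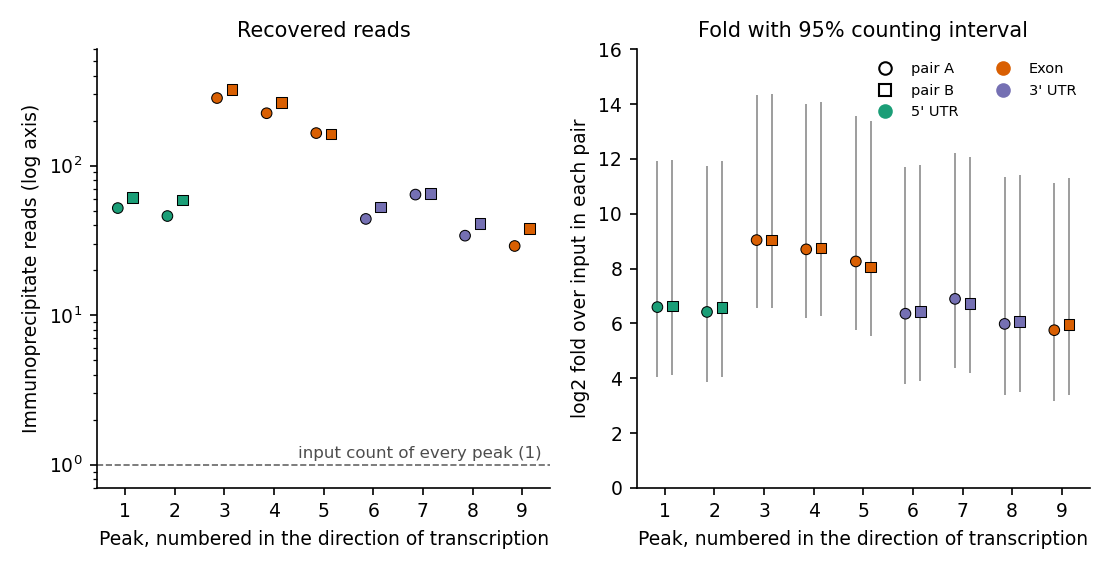
Left, recovered immunoprecipitate reads (log axis) of the 9 Tbk1 peaks, numbered in the direction of transcription, in pair A (circles) and pair B (squares), with the input count of 1 as a dashed line; right, the log2 fold over input in each pair with exact 95% counting intervals. Peaks 3 to 5, the exon block, hold 163 to 324 reads and the others 29 to 65, and the intervals are wide at all 9 peaks.

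**Figure D3:**
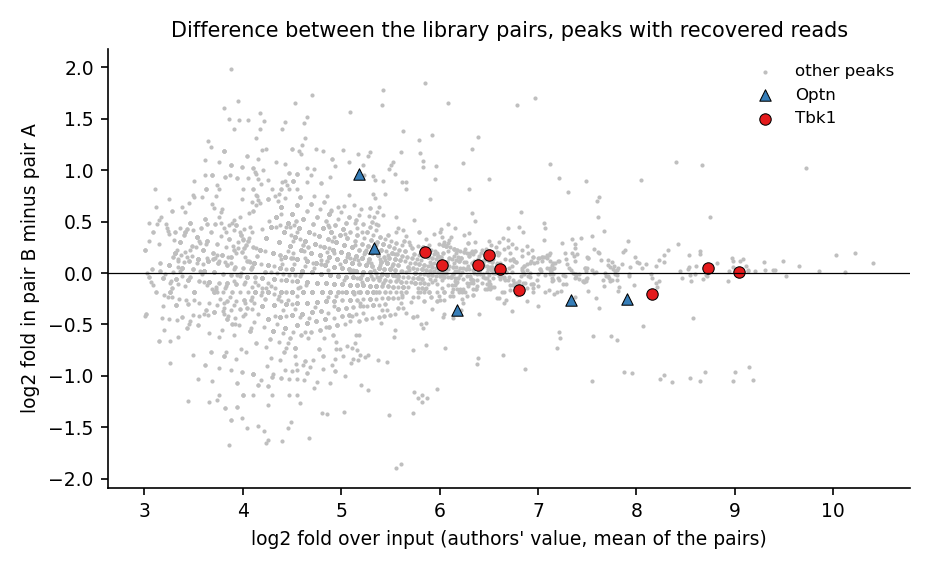
Difference of the log2 fold between the pairs (pair B minus pair A) against the authors' log2 fold for the 3962 peaks with recovered reads, with Tbk1 as red circles and Optn as blue triangles. The Tbk1 peaks lie between -0.205 and 0.203, and all of them have an input count of 1 in each pair, unlike some of the other peaks.

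By strongest peak, the value it was chosen for, Tbk1 stood 10th of 1626 gene symbols. The gene next above was the splicing regulator Mbnl2 (log2 fold 9.05, with 275 and 339 immunoprecipitate reads), and the gene next below was the translation factor gene Eif4g2 (8.94, with 262 and 302). Each of these peaks also lay in an exon and had an input count of 1 in both pairs. Between the pairs Mbnl2 ran from 8.996 to 9.11, a range that holds both Tbk1 values, so the order of these neighbours is not beyond their spread. Eif4g2, with a peak 3 nt wide, ran from 8.93 to 8.94, below both Tbk1 values. Counting intervals at an input count of 1 are far wider than this gap, so this order is not settled either. Ranked by the median peak of each gene Tbk1 stood 48th, and by the p column 18th. By immunoprecipitate CPM, reads scaled by the fitted library total without use of the input, it stood 16th of 1605 genes with recovered reads, with 128 in pair A and 126 in pair B. Of the 107 peaks with recovered reads and at least as high an immunoprecipitate CPM as the downstream piece of the block, 50 had an input count of 1 in both pairs. Reads were not recovered for 210 peaks, 34 of them at the list ceiling of 400 in -log10 p. Peaks with high signal are thus missing from the CPM rank and from these counts.

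Genes around TBK1 were grouped by role in 8 lists with 96 members. A peak was found for 11 of them (11.5%), against 7.33% of 21896 protein-coding genes in the RefSeq table. Without Tbk1 itself the count was 10 of 95 (10.5%). The strongest peaks of these 10 genes had a median log2 fold of 4.77, beside 4.69 for all gene symbols in the list. The lists were written with results of these data known and were not tested. A gene missing from the list may still be bound below its limits. A peak above the list median was found for 8 of the 96, Tbk1 included, beside 3.96% of all protein-coding genes. For 6 of the 96, again with Tbk1, there were 2 or more separate regions, beside 3.41% of all protein-coding genes.

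In the IKK family, Chuk and Ikbkb, the catalytic subunits of the classical IKK complex, were bound beside Tbk1. Chuk had touching 3' UTR peaks of 4.75 and 4.60 with 13 to 17 reads per pair. Ikbkb had 3 exon peaks of 4.36 to 4.80 with 10 to 16 reads per pair. Ikbke, the closest relative of TBK1, and Ikbkg, the regulatory subunit, had no peak. The strongest Tbk1 peak, with 283 and 324 reads, stood far above the highest count of either relative. Tbk1 was chosen for the height of this peak, so the gap largely follows from that choice and is not a separate finding.

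Of 10 adaptors of TBK1, 4 had a peak, beside the 7.33% of all protein-coding genes. Optn, the autophagy receptor optineurin, came nearest to Tbk1 in height, with 5 exon peaks up to 7.91 at chromosome 2, 5040691 to 5040737. Like Tbk1, Optn lay on the minus strand and had 3 touching exon peaks that stepped down along the transcript, with log2 folds of 7.91, 7.33 and 6.17. Reads in these were 141, 95 and 44 in pair A and 135, 90 and 39 in pair B, each over an input count of 1. The order of the steps was the same in both pairs. Touching peaks of other list members went either way along the transcript. They stepped down in Chuk (4.75, then 4.60) and up in Sqstm1 (4.25, then 4.55) and Jak1 (5.58, then 5.75). In Tax1bp1 they ran 4.93 and 6.22, and farther on 5.23, 5.16 and 6.07. How often touching peaks step down over the whole list was not counted.

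Tax1bp1, another autophagy receptor, had 12 peaks, 5 in the 3' UTR and 7 in exons, with a strongest value of 6.22 in the 3' UTR. Sike1, a suppressor of TBK1 and IKK-epsilon, had a single 3' UTR peak of 6.62 with 54 and 59 reads. Sqstm1, which encodes the autophagy receptor p62, had 3 exon peaks, the strongest at 4.55. Tank and the other scaffold adaptors Azi2 and Tbkbp1 had none, nor had Nbr1, Calcoco1 and Calcoco2.

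No peak was found for any member of 3 lists, 35 genes in all. With a peak on 7.33% of all protein-coding genes, a count of 0 in lists this short is near the background. The 3 lists were the 13 nucleic acid sensors, among them Cgas and Ifih1, the 8 signalling adaptors, among them Sting1, Mavs and Ticam1, and the 14 transcription factors, among them Irf3 and Rela. The sensor Rigi matched no gene of the RefSeq table and was looked up by that symbol alone. A peak listed under another name of this gene would have been missed. The counts of the remaining lists stand beside the same 7.33%. In the ubiquitin list Trim56, a ligase of the STING pathway, was the only bound member of 18 (3.603, 13 and 15 reads over an input count of 2). Among interferon receptors and kinases 1 of 10 was bound, Jak1, with touching 5' UTR peaks of 5.75 and 5.58. Of 18 other substrates and partners 2 were bound. Ralb, a small GTPase that activates TBK1, had 4.55 in the 3' UTR, and Rab7, a late endosomal GTPase, had 5 peaks up to 4.66.

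**Figure D4:**
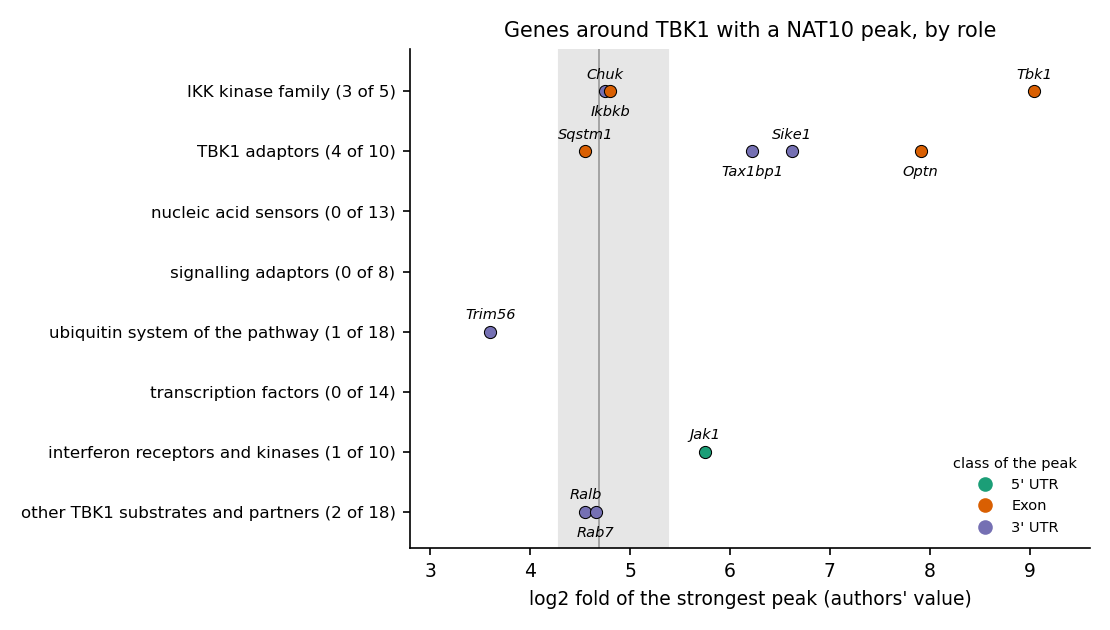
Log2 fold of the strongest peak (authors' value) of each gene with a peak in the 8 lists, coloured by the class of that peak; row labels give members with a peak of all members, and the grey band and line show the interquartile range (4.29 to 5.38) and median (4.69) over all gene symbols. Tbk1 (9.04), which was chosen for this value, and Optn (7.91) lie farthest to the right, and 3 lists have no point.

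Among the 32 genes with peaks in all 3 classes, Tbk1 had the highest exon value, the 2nd highest 5' UTR value and the 3rd highest 3' UTR value. Tbk1 was chosen for this exon peak. Its exon ranks, and its distance to other genes in the exon value, thus largely follow from that choice and are not separate findings. Its strongest values were 6.61 (5' UTR), 9.04 (exon) and 6.81 (3' UTR), beside medians of 4.49, 4.85 and 5.02 over the 32 genes. Among all listed peaks of a class, the strongest Tbk1 peak ranked 7th of 237 in the 5' UTR, 7th of 1532 in exons and 168th of 2403 in the 3' UTR. Likeness was measured as the Euclidean distance over these 3 values. The nearest gene was Mecom, a transcription factor gene of blood stem cells, at 3.06, with a 5' UTR value of 6.31, an exon value of 6.47 and a 3' UTR value of 8.44. Next came the U1-associated factor gene Luc7l2 (3.16), the phosphatase gene Ptp4a2 (3.82), the translation inhibitor gene Pdcd4 (3.98) and Zc3h11a (4.34). Even the nearest gene thus lay over 3 log2 units away, most of it in the exon value for Luc7l2, Ptp4a2, Pdcd4 and Zc3h11a, each of which had an exon peak of 5.10 to 5.92. Of the 5 nearest genes Zc3h11a, like Tbk1, had its highest value in an exon, Mecom and Luc7l2 had it in the 3' UTR, and Ptp4a2 and Pdcd4 in the 5' UTR.

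**Figure D5:**
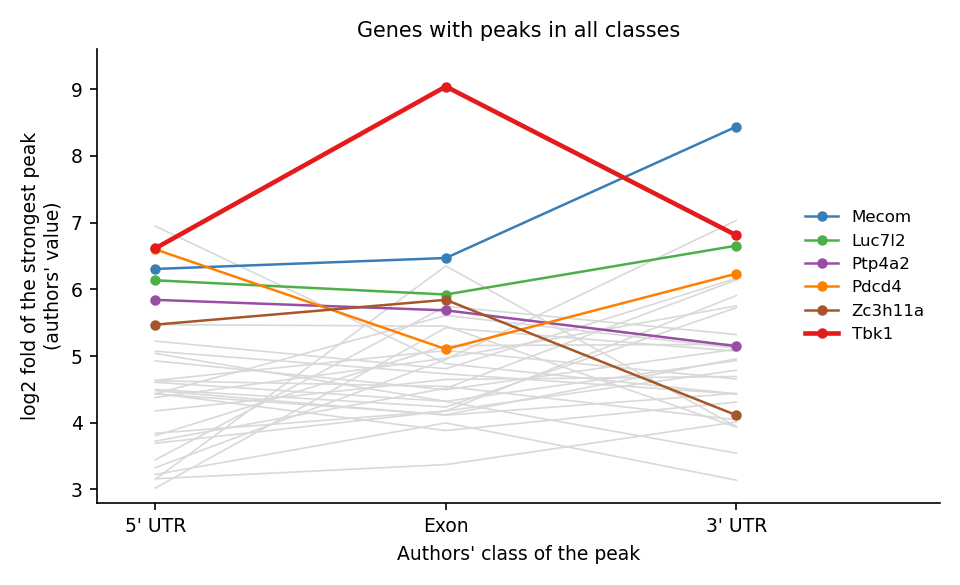
Log2 fold of the strongest peak (authors' value) in each of the authors' classes for the 32 genes with peaks in all of them; Tbk1 is the thick red line, the 5 nearest genes are coloured and the others grey. The exon value of Tbk1, 9.04, is the peak it was chosen for and is the highest, and its 5' UTR and 3' UTR values are 6.61 and 6.81.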

How the data were processed

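The authors deposited 1 peak list for all 4 libraries, built on GRCm39 per the submitters' processing notes. Per the file headers it gives a p-value column, read as -log10 p, and a fold column, read as log2. The sources used here name no aligner, peak caller or cut-off. Rows of the same peak under different gene identifiers were counted once, and touching peaks of a strand were joined. CPM and read counts per library pair were recovered as described in the report, trying input counts up to 10 and a tolerance of 0.001 on whole counts. Peaks at the list ceiling of 400 in -log10 p were left out of this step. On simulated data the fit was tested for the ratio of the counts, not for the counts themselves. Of 1626 symbols 1609 matched by symbol, or by a synonym of 1 gene, to RefSeq genes of GRCm38.p6. Of 96 list members 95 matched, and Rigi was looked up by its symbol alone. Python 3.11.15, scipy 1.17.1 and pandas 2.3.3 were used. Tbk1, the lists and the rules were chosen with earlier results of these data known. Named were Tbk1, its neighbours in rank, all bound list members, the IKK family and the 5 genes nearest by strongest peak per class; Xpot and the other genes with an exon peak beyond a 3' UTR peak were named after their values were seen. Peak sequences, proteins and a count test were not analysed here.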

Additional observations from a re-analysis of the deposited data

How the results depend on the processing

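Tbk1 kept all 9 peaks above the median fold and above the median -log10 p of the list, and its 7 regions became 6 or 5 when gaps of up to 50 or 200 bases were joined. The median log2 fold of 6.61 became 6.50 over joined regions, and 6.59 to 6.64 with 1 pair alone. The rank of 10 among genes became 48 by median peak, 18 by the p column and 16 by immunoprecipitate CPM (added after the data were seen). It was 7 by the second-strongest peak and 8 to 10 with 1 pair alone. The CPM and single-pair ranks cover only genes with recovered reads. Of the 96 pathway genes, 11 had a peak. A peak above the list median was found for 8, beside 3.96% of all protein-coding genes. Separate regions numbered 2 or more for 6, beside 3.41% of all protein-coding genes. Tbk1 is counted in each. Of the 1605 protein-coding genes with a peak, 866 had one above the list median and 747 had 2 or more separate regions. Of the 5 genes most like Tbk1, 4 were again among the nearest by median peak and 0 by number of peaks per class. No paired analysis was possible because the results come from no test, Tbk1 having been chosen on these values, and the recovered pairs could not be tied to the labelled replicate numbers; values within each pair stand in the report. Depth limits the Tbk1 folds, whose recovered input count is 1 in both pairs.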
